A study of Mus musculus with 4 samples.

Results

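The genes described here are 8 regulators of transcription in mouse oocytes: the basic helix-loop-helix (bHLH) factors Figla, Sohlh1 and Sohlh2, the homeobox factors Nobox and Lhx8, and Taf4b, Tbpl2 and Tbp of the general transcription machinery. They were taken by name, and all 8 were among the 25587 genes with deposited values. RNA of wild-type C57BL/6Babr oocytes was sequenced after depletion of ribosomal RNA as 4 libraries, 1 for each stage of growth. Non-growing oocytes (NGOs) were collected at 5 days post partum (dpp), growing oocytes at 8 to 14 dpp (GO1) and at 15 dpp (GO2), and fully grown oocytes (FGOs) at 20 dpp. The ranges of oocyte size that the paper lists for NGOs and GO1 overlap. A dUTP second-strand protocol was used for NGOs and FGOs, and the ScriptSeq v2 kit for both growing stages. Between libraries of different protocols, stage and kit cannot be told apart, so FGOs were compared with NGOs and GO2 with GO1, and levels of all 4 libraries are given side by side in order of age. No stage had a replicate, so no test between stages was possible, and every interval below is a 95 % interval that covers counting error only.

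Oocytes of primordial follicles depend on a small set of germ-cell transcription factors. FIGLA pairs with E proteins, the common partners of bHLH factors, and binds the E-box (CANNTG) in zona pellucida genes, whose products form the coat of the egg. SOHLH1 and SOHLH2 are related bHLH factors that act before and at the start of follicle growth, while NOBOX and LHX8 carry homeodomains and are needed for oocytes to survive and enter growth. At core promoters, the complex TFIID, made of the TATA-binding protein TBP and TBP-associated factors (TAFs), places RNA polymerase II. Oocytes also make TBPL2, a TBP paralog that works with TFIIA, and the gonads are rich in TAF4B, a paralog of the TFIID subunit TAF4.

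The 250 bases before the RefSeq start sites are shown for 5 of the members, to set Sohlh1, the member whose levels differed most, Figla and Tbpl2 beside the more even Nobox and Lhx8. Each runs 5′ to 3′ on the strand of its gene (GRCm38.p6), with E-boxes in capitals, and bases are counted backwards from the start site.
Figla, chr6:86016941-86017190, plus strand: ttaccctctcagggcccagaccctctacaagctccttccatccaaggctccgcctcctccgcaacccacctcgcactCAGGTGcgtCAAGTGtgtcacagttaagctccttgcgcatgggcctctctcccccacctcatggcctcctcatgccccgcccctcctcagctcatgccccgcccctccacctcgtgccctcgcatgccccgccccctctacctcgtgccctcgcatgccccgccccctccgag
Sohlh1, chr2:25847249-25847498, minus strand: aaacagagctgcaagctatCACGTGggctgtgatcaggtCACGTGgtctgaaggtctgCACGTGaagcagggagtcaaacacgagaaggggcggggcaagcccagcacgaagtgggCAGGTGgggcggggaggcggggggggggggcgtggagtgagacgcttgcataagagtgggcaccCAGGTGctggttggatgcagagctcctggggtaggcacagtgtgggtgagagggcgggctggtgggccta
Nobox, chr6:43309555-43309804, minus strand: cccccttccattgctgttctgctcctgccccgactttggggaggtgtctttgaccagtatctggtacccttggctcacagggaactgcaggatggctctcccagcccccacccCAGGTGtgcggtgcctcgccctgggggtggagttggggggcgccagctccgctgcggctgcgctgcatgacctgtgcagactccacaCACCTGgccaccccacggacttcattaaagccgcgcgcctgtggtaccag
Lhx8, chr3:154330561-154330810, minus strand: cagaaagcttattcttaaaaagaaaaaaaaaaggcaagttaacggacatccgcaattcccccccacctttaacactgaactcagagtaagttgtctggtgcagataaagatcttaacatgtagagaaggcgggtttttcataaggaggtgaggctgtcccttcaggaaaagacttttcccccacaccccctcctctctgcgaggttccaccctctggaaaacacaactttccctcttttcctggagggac
Tbpl2, chr2:24096596-24096845, minus strand: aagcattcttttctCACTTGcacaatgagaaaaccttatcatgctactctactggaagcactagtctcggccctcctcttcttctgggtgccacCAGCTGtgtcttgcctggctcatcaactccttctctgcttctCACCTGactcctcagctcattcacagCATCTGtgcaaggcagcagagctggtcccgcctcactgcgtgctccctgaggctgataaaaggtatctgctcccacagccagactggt

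Among the 7 members matched to a RefSeq promoter, which leave out Taf4b, Sohlh1 had the most E-boxes. It had 5, starting at -231, -211, -192, -134 and -70. The first 3 of these have the letters CACGTG. Tbpl2 had 4 E-boxes, Figla 2 (at -173 and -164), Nobox 2 (at -137 and -50), and Lhx8 none. Sohlh2 and Tbp, which are not printed, had 1 each. Sohlh2 was 5.80-fold lower in FGOs than in NGOs, a larger change than that of Figla or Tbpl2. Whether the number of E-boxes relates to the change of a member was not tested. Of 32851 promoters of the same length, 66.2 % held at least 1 E-box, the median was 1, and 1.15 % held 5 or more, a threshold equal to the Sohlh1 count. At least 3 CACGTG were found in 20 of these promoters, or 0.0609 %, a motif count looked up after the Sohlh1 window had been read. Neither a homeobox core (TAATTA or TAATTG, either strand, in 11.3 % of all promoters) nor TATAAA (either strand, in 12.4 %) occurred in the windows of the 7 members matched to a RefSeq promoter. These matches are letters in a window and were not tested for binding.

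Between 60835103 counts (NGOs) and 131100821 counts (GO2) on genes were recovered from the deposited values of a library. In every library these counts exceed both the raw and the uniquely mapped reads that the paper lists. A sequenced pair was therefore probably counted more than once. The counting intervals treat counts as independent, so they would then be too narrow. The values themselves are RPKM, that is, reads divided by exon length and by a total for the library, so they are shares of each library and do not give RNA per oocyte. Fewer cells of a type and less RNA per cell cannot be told apart in such samples. All 7 oocyte markers were detected in every library, with summed levels of 4205 (NGO), 3030 (GO1), 2857 (GO2) and 2679 RPKM (FGO). Summed over 10 granulosa cell markers, the level was 2.88, 2.52, 5.18 and 11.0 RPKM in the same order. Cyp19a1 made up 6.08 RPKM of the FGO sum, and 4 of the 10 (Amhr2, Foxl2, Inhba and Nr5a1) were lower in FGOs than in NGOs. The 7 stroma and theca markers summed to 5.17 RPKM in NGOs and to between 0.282 and 0.616 RPKM in the other libraries. The NGO sum was carried by the collagen genes Col1a1, Col1a2 and Col3a1 (2.24, 0.896 and 1.73 RPKM), while Pdgfra was at 0.189 RPKM there and 0.188 in GO2, and Star, Cyp17a1 and Cyp11a1 were not highest in NGOs. For blood, 3 of the 4 markers were in the table and summed to between 0.342 and 1.55 RPKM, with Hba-a1 listed at 0 in GO1 and FGOs. The 3 endothelial markers summed to between 1.81 and 9.81 RPKM, nearly all of it Pecam1, with Cdh5 listed at 0 in GO2 and FGOs.

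Among the factors that bind specific DNA sites, the 3 bHLH genes and both homeobox genes were highest in NGOs, but over unlike ranges. The highest level was 135 times the lowest for Sohlh1, 6.03 times for Sohlh2 and 4.95 times for Figla. It was 1.48 times for Lhx8 and 1.23 times for Nobox. From NGOs to FGOs, 4 of the 8 members were at least 2-fold lower in FGOs (Sohlh1, Sohlh2, Figla and Tbpl2), against a background of 16.7 % of the 15250 genes compared. None was at least 2-fold higher, where the background was 17.7 %. From GO1 to GO2, only Sohlh1 was past 2-fold, lower in GO2, against 2.84 % of 15721 genes that were lower and 6.88 % that were higher. The median log2 change of the members was -0.85 between NGOs and FGOs, and -0.15 between the growing stages, while that of all genes compared was -0.01 and 0.02. All 8 members passed the minimum of 20 counts in both pairs.

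**Figure D1:**
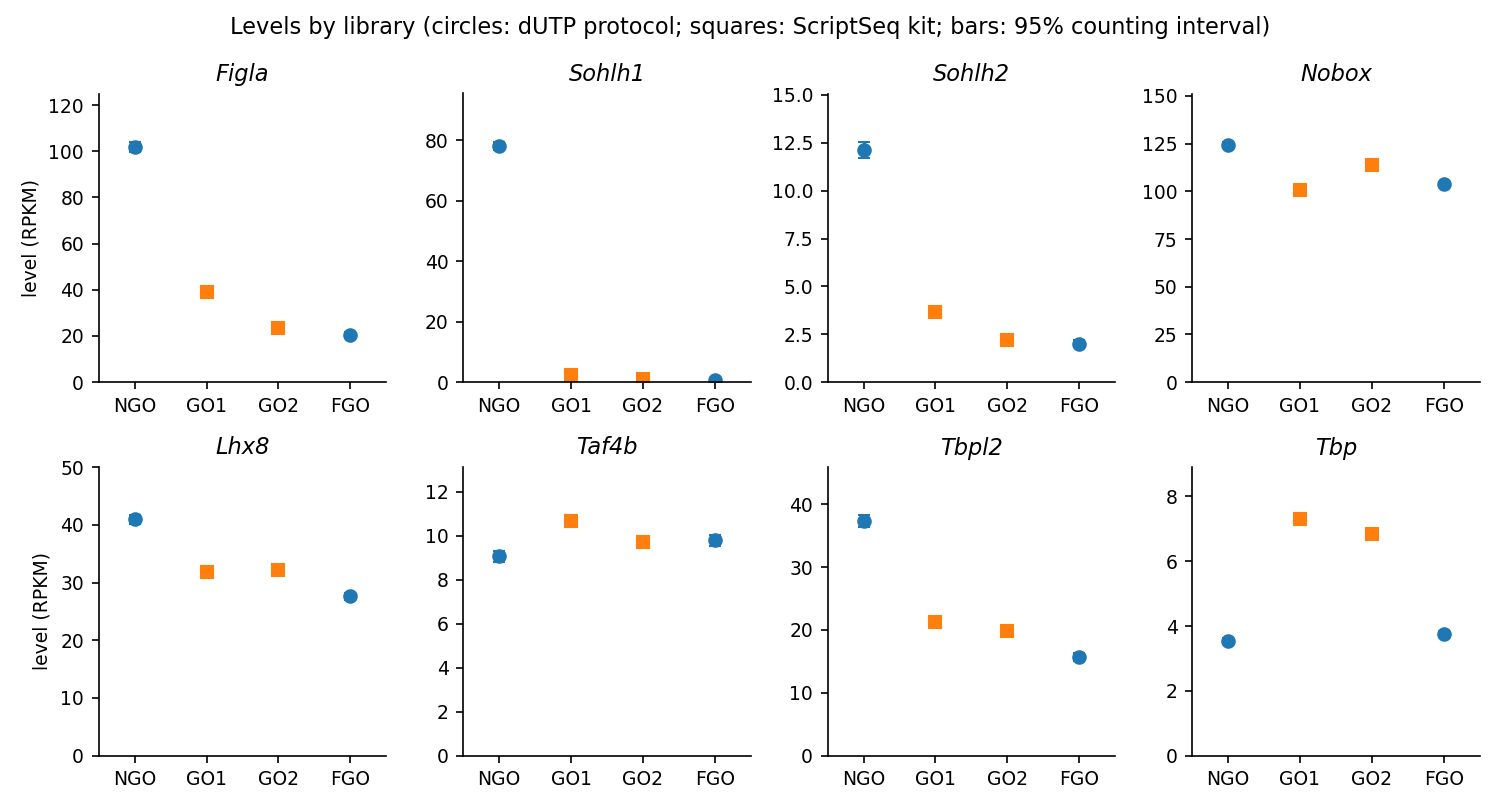
Level of each member in RPKM (vertical axis, linear and from 0, a scale for each gene) in the 4 libraries (horizontal axis), with 95 % counting intervals as bars; circles are dUTP libraries and squares ScriptSeq libraries. Figla, Sohlh1, Sohlh2, Tbpl2 and, over a smaller range, Lhx8 were highest in NGOs and lowest in FGOs. Nobox stayed between 101 and 125 RPKM, and Tbp was higher in both ScriptSeq libraries than in both dUTP libraries.

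Sohlh1 (chr2:25842995-25847248, minus strand, exon length 1289 bases) stood at 78.0 RPKM in NGOs and at 2.35 RPKM in GO1, then 1.09 RPKM in GO2 and 0.577 RPKM in FGOs. These levels rest on 11123, 384, 339 and 89 counts. It was thus among the more abundant messages of NGOs, at rank 287 of all genes, and at rank 10908 in FGOs. From NGOs to FGOs it was 129-fold lower on the scaled libraries, a log2 change of -7.01 with an interval of -7.34 to -6.72. From GO1 to GO2 it was 2.20-fold lower (log2 change -1.14, interval -1.36 to -0.93), and the interval includes changes of less than 2-fold. Sohlh1 was the third most abundant member in NGOs and the least abundant in each of the other libraries. The 3 collagen genes among the 7 stroma and theca markers were also highest in NGOs. Pdgfra was at 0.189 RPKM in NGOs, 0.0890 in GO1 and 0.188 in GO2, and Star, Cyp17a1 and Cyp11a1 were not highest in NGOs. The part of such cells in the level of Sohlh1 was not tested.

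Sohlh2 (chr3:55182028-55209957, plus strand, 2364 bases of exon), which encodes the partner of SOHLH1, had levels of 12.1, 3.69, 2.19 and 2.01 RPKM from NGOs through FGOs. The GO2 and FGO levels had overlapping counting intervals, and the other neighbours in this order did not. It was 5.80-fold lower in FGOs than in NGOs (log2 change -2.54, interval -2.67 to -2.41) and 1.72-fold lower in GO2 than in GO1 (log2 change -0.78, interval -0.90 to -0.67). The ratio between these partners was far from constant: Sohlh1 was 6.43 times the level of Sohlh2 in NGOs, but 0.637 times in GO1, then 0.497 times (GO2) and 0.287 times (FGO). The counting interval was 6.18 to 6.69 in NGOs and 0.227 to 0.359 in FGOs, and the ratio was 22.4 times larger in NGOs. Such a ratio is taken within a library and does not depend on how libraries are scaled.

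Figla (chr6:86017191-86020996, plus strand, 759 bases of exon) was at 102.0 RPKM in NGOs and at 38.9 RPKM (GO1), 23.6 RPKM (GO2) and 20.6 RPKM (FGO) later. The 4 counting intervals did not overlap. In FGOs it was 4.77-fold lower than in NGOs (log2 change -2.25, interval -2.33 to -2.18), and in GO2 it was 1.69-fold lower than in GO1 (log2 change -0.76, interval -0.82 to -0.69). Even at its lowest, in FGOs, Figla ranked above 89.1 % of detected genes, whereas Sohlh1 ranked above 34.7 % and Sohlh2 above 50.4 % there. The 3 bHLH genes shared the order NGO, GO1, GO2, FGO from highest to lowest, across both protocols.

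Nobox (chr6:43303674-43309562, minus strand, 1901 bases of exon) was the most abundant member in every library, with 124.6, 100.9, 113.9 and 103.7 RPKM in order of age. Its highest level was 1.23 times its lowest, and it ranked above at least 98.7 % of detected genes throughout. From NGOs to FGOs it was 1.16-fold lower (log2 change -0.21, interval -0.24 to -0.19). From GO1 to GO2 it was 1.10-fold higher (log2 change 0.14, interval 0.12 to 0.16). The counts behind these values, 23574 or more in each library, make the counting intervals narrow, and the spread between repeated libraries of a stage is unknown.

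Lhx8 (chr3:154306288-154330651, minus strand, 2569 bases of exon), a LIM-homeobox gene, was at 40.9 RPKM in NGOs and 27.6 RPKM in FGOs, with 31.9 RPKM in GO1 and 32.1 RPKM in GO2 between them. The GO1 and GO2 levels had overlapping intervals. The FGO level was 1.43-fold lower than that of NGOs (log2 change -0.51, interval -0.55 to -0.47), and between GO1 and GO2 the log2 change was -0.02 with an interval of -0.06 to 0.01. Lhx8 ranked below Figla among the members in NGOs and GO1 and above it in GO2 and FGOs.

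**Figure D2:**
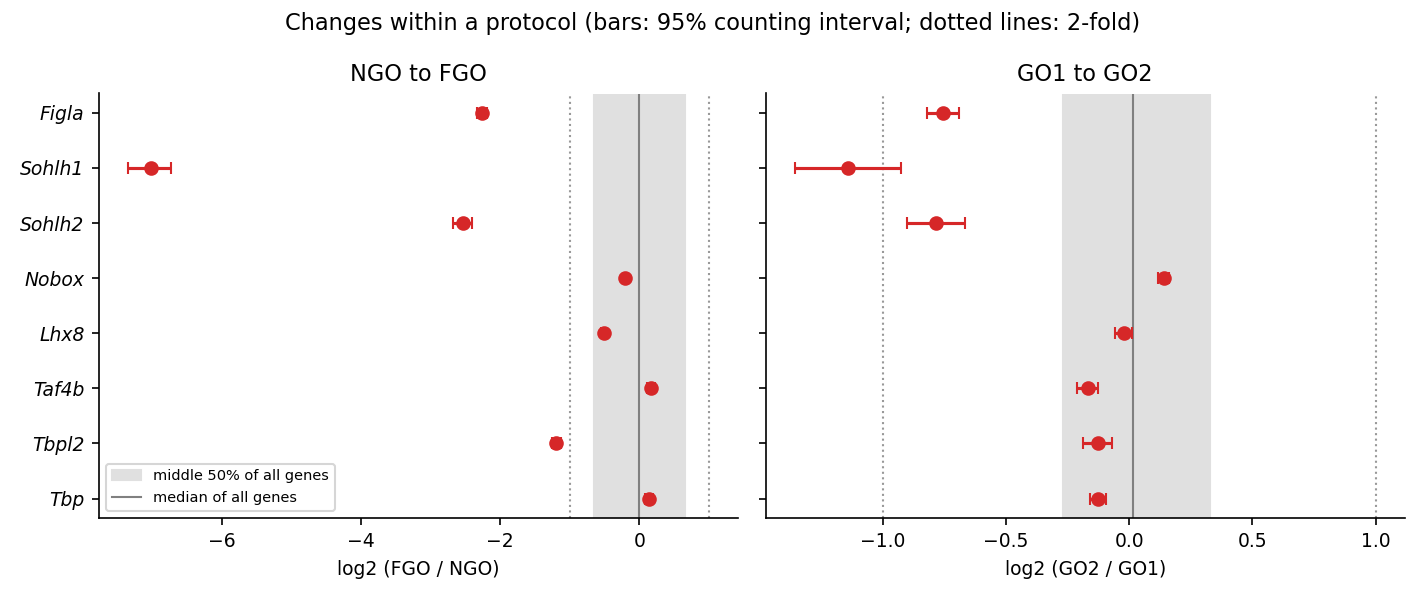
Change of each member on the log2 scale (horizontal axes, which differ in range) for FGOs against NGOs (left) and GO2 against GO1 (right), with 95 % counting intervals as bars; the grey band holds the middle 50 % of all genes compared, the grey line is their median and dotted lines mark 2-fold. From NGOs to FGOs the 3 bHLH genes and Tbpl2 lay beyond 2-fold, from -1.19 for Tbpl2 to -7.01 for Sohlh1, and the other 4 members lay inside the band.

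Of the general machinery, Tbpl2 was lower in FGOs than in NGOs, while Tbp and Taf4b were within 2-fold in both pairs. Tbpl2 (chr2:24071721-24096595, minus strand, 1379 bases of exon) was at 37.3 RPKM in NGOs and 21.3 RPKM in GO1, followed by 19.9 RPKM in GO2 and 15.7 RPKM in FGOs, with no overlap of intervals. It was 2.29-fold lower in FGOs than in NGOs (log2 change -1.19, interval -1.26 to -1.13) and 1.09-fold lower in GO2 than in GO1 (log2 change -0.13, interval -0.19 to -0.07). Its order across the libraries was that of the bHLH genes, with a smaller range: the NGO level was 2.38 times the FGO level, against 4.95 times for Figla.

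Tbp (chr17:15499888-15528379, plus strand) was at 3.54 RPKM in NGOs and 3.76 RPKM in FGOs, and at 7.30 RPKM in GO1 and 6.85 RPKM in GO2. Both ScriptSeq libraries were higher than both dUTP libraries, so the step between NGOs and GO1 follows the protocol as well as the stage. Within a protocol the changes were small, with a log2 change of 0.14 in FGOs against NGOs (interval 0.09 to 0.20) and of -0.13 in GO2 against GO1 (interval -0.16 to -0.09). The level of Tbp depends on its gene model. The exon length behind the values was 13399 bases, whereas the GENCODE model Tbp-201 has 1891 bases and ends at chr17:15517427. A longer GENCODE model, Tbp-211, has a last exon of 11676 bases that runs past this point over Pdcd2, a gene on the other strand. The strand setting of the counting is not given in the sources used here, and the values of Pdcd2 were 8.31, 7.72, 6.24 and 8.58 RPKM. With the counts listed for Pdcd2 taken off, Tbp stood at 1.93, 5.81, 5.64 and 2.10 RPKM, and its log2 changes were 0.17 and -0.08. No other member overlapped a listed gene.

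Per exon length as deposited, Tbpl2 was 10.6 times the level of Tbp in NGOs and 4.18 times in FGOs, with 2.92 times in GO1 and 2.91 times in GO2. The counting intervals were 10.2 to 11.0 in NGOs and 3.99 to 4.38 in FGOs, and those of GO1 and GO2 overlapped. The NGO ratio was thus 2.52 times the FGO ratio. Whether Tbpl2 exceeded Tbp turns on the model: if every count on Tbp came from Tbp-201, the ratio would be 1.49 in NGOs, 0.590 in FGOs and 0.411 in both GO1 and GO2. With the counts on Pdcd2 taken off, it would be 19.3, 3.66, 3.53 and 7.47 in order of age. A change of Tbp length multiplies the ratio by the same factor in every library, so it cannot change their order. Taking off the counts on Pdcd2 could, and the NGO ratio was still above the FGO ratio. Only the counts listed for Pdcd2 were taken off. If both strands were counted, reads from its introns would remain on Tbp, so the order without this overlap is not settled.

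Taf4b (chr18:14783245-14900359, plus strand, 5149 bases of exon) had the smallest range of the 8 members, with 9.05, 10.7, 9.72 and 9.78 RPKM in order of age. The intervals of GO2 and FGOs overlapped. Its log2 change was 0.17 in FGOs against NGOs (interval 0.11 to 0.22) and -0.17 in GO2 against GO1 (interval -0.21 to -0.13). Its paralog Taf4, listed under the older symbol Taf4a, was at 6.54, 13.8, 11.6 and 8.15 RPKM in the same order. Taf4b was therefore 1.38 times the level of Taf4 in NGOs (interval 1.32 to 1.45) and 1.20 times in FGOs (interval 1.15 to 1.25). It was below Taf4 in the ScriptSeq libraries, with ratios of 0.773 in GO1 and 0.835 in GO2. Taf4 was 2.11 times higher in GO1 than in NGOs, as Tbp was 2.06 times higher, and in both cases stage and kit cannot be told apart.

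**Figure D3:**
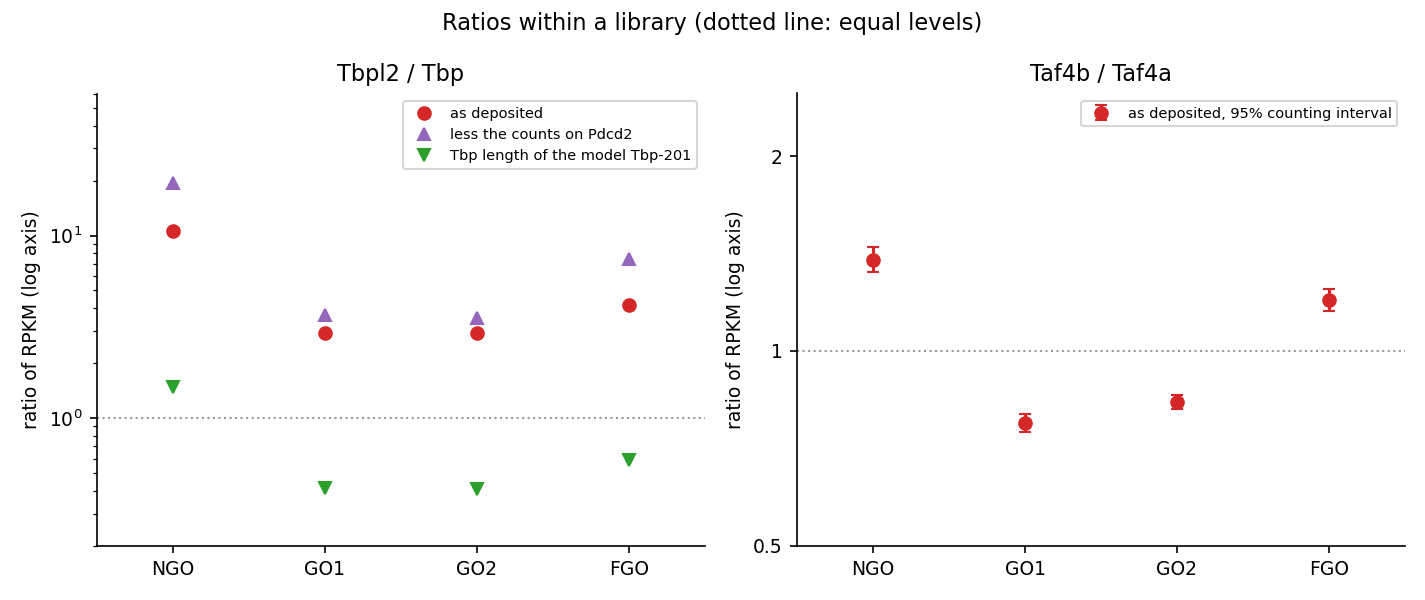
Ratio of levels within each library (vertical axes, logarithmic) for Tbpl2 over Tbp (left) and Taf4b over Taf4a (right, with 95 % counting intervals). For Tbpl2 over Tbp the ratio as deposited is drawn beside that with the length of Tbp-201 and that less the counts on Pdcd2. The NGO ratio is the highest as deposited and less the counts on Pdcd2, and the length of Tbp-201 shifts all libraries by the same factor. Taf4b over Taf4a lies above 1 in NGOs and FGOs and below 1 in GO1 and GO2.

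A list of 19 other genes held TFIID subunits with their paralogs, TFIIA genes and the TBP-related Tbpl1. Of these, 3 were at least 2-fold higher in FGOs than in NGOs and 2 were lower, with a median log2 change of 0.24. Over all genes compared, 17.7 % were higher and 16.7 % lower, so neither count stands out from the background. Taf8 was at 11.9 RPKM in NGOs and 27.2 in FGOs (log2 change 1.25, interval 1.20 to 1.31), Taf3 at 2.63 and 5.55, and Taf11 at 5.66 and 11.1. The log2 changes were 1.13 for Taf3 and 1.03 for Taf11, and the interval of Taf11, 0.94 to 1.12, includes changes under 2-fold. Taf11 was within 2-fold when libraries were scaled by deposited totals (0.98) or by counts on genes (0.93). The lower genes were Tbpl1, the third TBP-related gene, at 5.68, 4.48, 2.93 and 2.06 RPKM in order of age, and Taf7l, a TAF7 paralog known from germ cells. Tbpl1 had a log2 change of -1.40 from NGOs to FGOs (interval -1.52 to -1.29). Taf7l was low throughout, with 48, 8, 4 and 2 counts and a counting interval of -7.73 to -2.71 for its log2 change, and it missed the minimum of 20 counts from GO1 to GO2. Among subunits within 2-fold, Taf5 had 20.9 RPKM in NGOs and 21.3 in FGOs. From GO1 to GO2, none of the 18 genes that reached the minimum was past 2-fold, and the median was -0.12.

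Of 7 E proteins and their inhibitors, 3 were within 2-fold in FGOs against NGOs. The other 4 were at least 2-fold lower in FGOs, none was higher, and the median log2 change was -1.10, where 16.7 % of all genes compared were lower and 17.7 % higher. The E protein Tcf12 was at 13.5, 10.4, 7.37 and 4.69 RPKM in order of age (log2 change from NGOs to FGOs -1.47, interval -1.53 to -1.40). Tcf4 was at 0.881 RPKM in NGOs and 0.396 in FGOs, a log2 change of -1.10 whose interval, -1.25 to -0.96, includes changes under 2-fold. Tcf3, the E protein with the highest level in NGOs, was within 2-fold, with 16.6, 7.66, 7.41 and 9.14 RPKM. ID proteins lack a DNA-binding region and hold E proteins off DNA. Id2 was at 3.92 RPKM in NGOs and 1.09 in FGOs (log2 change -1.78), and Id1 at 1.30 and 0.396 (log2 change -1.64). Id3 (24.5 and 12.6 RPKM) and Id4 (0.817 and 0.685 RPKM, log2 interval -0.55 to 0.14) were within 2-fold, although Id3 passed it with counts on genes as the scale (-1.02). The NGO library, where these genes were highest apart from Tcf4, also held the highest levels of the 3 collagen genes. In NGOs, Col1a1, Col1a2 and Col3a1 were at 2.24, 0.896 and 1.73 RPKM. Of the other stroma and theca markers, Pdgfra was at 0.189 RPKM in NGOs and 0.188 in GO2. Star, Cyp17a1 and Cyp11a1 were not highest in NGOs. The part of stroma cells in the levels of the E protein and ID genes was not tested. None of these 7 E protein and ID genes was past 2-fold between the growing stages, where the median was -0.44.

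Of 12 genes known to need these factors, 2 were at least 2-fold higher in FGOs than in NGOs and 3 were lower, with a median of -0.09. Among all genes compared, 17.7 % were higher and 16.7 % lower. Of those that need FIGLA, Zp2 was at 2261 RPKM in NGOs and 1052 in FGOs, Zp3 at 1772 and 819.8 and Padi6, which encodes a protein of the oocyte cytoplasmic lattices, at 3360 and 1253. Their log2 changes were -1.05, -1.06 and -1.37, and the fourth, Zp1, had a log2 change of -0.75 and was within 2-fold. The growth factor gene Bmp15, which needs NOBOX, was higher in FGOs, at 131.1 and 414.0 RPKM (log2 change 1.71), as was Rfpl4, at 209.7 and 512.2 RPKM (log2 change 1.34). Gdf9, another gene that needs NOBOX, was at 1009 RPKM in NGOs and 974.3 RPKM in FGOs, and Pou5f1, Mos, Zar1 and H1foo were within 2-fold. Kit, reported to need SOHLH1 and LHX8, was at 62.2 RPKM in NGOs and 38.4 in FGOs, a log2 change of -0.64. Between the growing stages none of the 12 was past 2-fold, and their median was 0.03. Zp3, Gdf9 and Kit of this list are also among the oocyte markers.

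Of 6 further genes, listed as other transcription regulators of oocytes, 2 were at least 2-fold higher in FGOs than in NGOs and 2 were lower. The shares of all genes were 17.7 % and 16.7 %. Sall4, a zinc-finger factor, was at 16.5 RPKM in NGOs and 35.6 in FGOs, and Lhx2, a LIM-homeobox gene, at 0.239 and 0.666 RPKM, with log2 changes of 1.17 and 1.53. Stat3, the signal-dependent factor, was at 41.5, 14.7, 10.9 and 11.0 RPKM in order of age, a log2 change of -1.86 from NGOs to FGOs. Dynll1, named for a dynein light chain, was at 62.6 and 25.3 RPKM (log2 change -1.25), and Foxo3 and Sub1 were within 2-fold. None of the 6 was past 2-fold between GO1 and GO2.

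**Figure D4:**
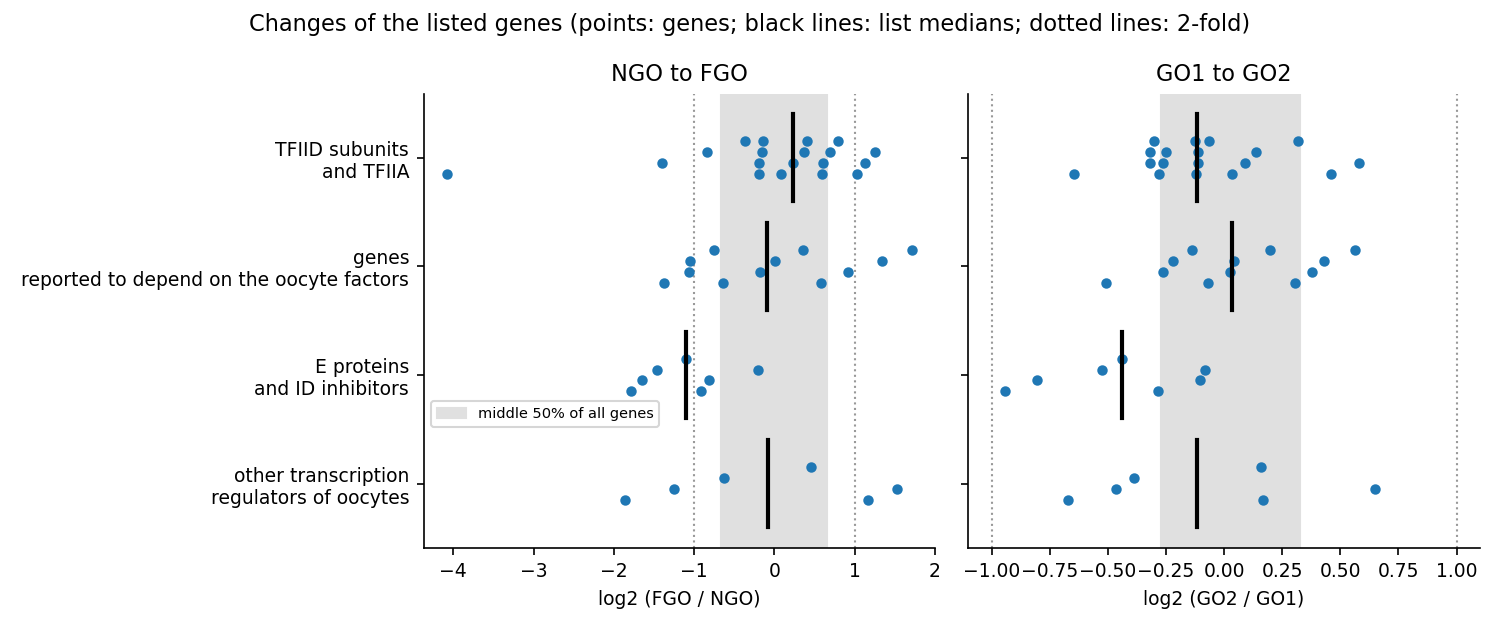
Change on the log2 scale (horizontal axes, which differ in range) of each listed gene (points) for FGOs against NGOs (left) and GO2 against GO1 (right), for the 4 lists; black lines are list medians, the grey band holds the middle 50 % of all genes compared and dotted lines mark 2-fold. The median of E proteins and ID inhibitors, -1.10 and -0.44, lies below the band in both panels, and no point passes 2-fold from GO1 to GO2.

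The pattern of a member over the 4 libraries was compared with that of 14267 genes with at least 100 counts, as the distance between log2 levels after removal of each gene's mean. For Sohlh1 no gene came within a distance of 0.5, and the nearest were Mageb4 (distance 1.81; 6.08 RPKM in NGOs and 0.191 in FGOs), Fos (1.87) and Col1a1 (1.95). Figla had 149 genes within that distance, led by Slc17a5, Pdgfd and Tomm5, and Sohlh2 had 110, led by Actb, Ddah1 and Ly6a. Actb, which encodes beta-actin, was at 159.6, 49.7, 31.1 and 28.4 RPKM in order of age. The more even members had many like genes: 3224 for Nobox (nearest Polr3a, Hfm1 and Gar1), 2830 for Lhx8 (nearest Spice1, Nipal2 and Nol11) and 3503 for Taf4b (nearest Rhot1, Ube4b and Fam102b). Tbpl2 had 1203, led by Irak1, 1700125H20Rik and Rbm10, and Tbp had 1009, led by Epb4.1, Cpb2 and A630010A05Rik. The distance is not scaled for the size of changes, so the number of genes within 0.5 largely follows how much a member's levels differed. With 4 libraries of 2 protocols, likeness is a description of these libraries.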

How the data were processed

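The deposited values were RPKM, which the authors made from RNA-Seq reads trimmed with Trim Galore 0.2.8 and mapped to GRCm38 with TopHat2 2.0.9 (per the submitters' processing notes). The counting program, annotation and strand setting are not given in the sources used here. The table had been named as read counts, and the analysis had been planned for counts, but its values were not whole.

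Counts were recovered as RPKM times exon length times a library total, fitted on single-exon GENCODE M21 genes, where at least 99.4 % of values above 0 came out whole. Exon lengths were the GENCODE exon union (9768 genes), a transcript (1524) or the smallest fitting length (9730); for 1 gene none was found. The smallest length can understate counts by a factor common to all libraries. Nobox, Lhx8, Tbp and Taf4 had lengths of this last kind.

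Each pair was put on a common scale by trimmed log ratios (30 % of ratios and 5 % of means trimmed) with a prior count of 1. Genes needed 20 counts in the pair, and 2-fold was the threshold. Scaling by counts on genes would move all log2 changes by -0.11 in FGOs against NGOs and by 0.07 in GO2 against GO1. Intervals (95 %, Poisson for levels, binomial for ratios) cover counting error only, since reads carried no molecular identifiers. They treat counts as independent, although the counts exceed the reads listed in the paper, and so are probably too narrow. A gene was detected with 3 counts. Patterns used a pseudocount of 0.1 RPKM. Scripts (Python 3.11.15, numpy 2.4.6, scipy 1.17.1, pandas 2.3.3, matplotlib 3.10.9) were tested on simulated data. Promoters came from RefSeq (GRCm38.p6), with 7 of 8 members matched.

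Named were all members, their 3 nearest genes in pattern, listed genes past 2-fold, paralogs and markers; listed genes within 2-fold were added as examples after their values were seen. Members and lists were chosen with earlier results of these data known.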

Additional observations from a re-analysis of the deposited data

How the results depend on the processing

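Directions of single members held under median-of-ratios scaling, counts on genes, deposited totals and a prior count of 5, except Lhx8 from GO1 to GO2. It became 0.052 with counts on genes and 0.012 with deposited totals. These scales shift every gene of the pair by 0.074 and 0.034, more than the size of its main change, -0.022. With counts on genes, the median member change was -0.96 in FGOs against NGOs and -0.075 in GO2 against GO1. At a 4-fold threshold, no member was past it from GO1 to GO2 (0 of 8) and 1 listed gene from NGOs to FGOs, against 18 at 2-fold (17 with deposited totals, which lost Taf11, and 18 with counts on genes, which lost Taf11 and gained Id3); with a minimum of 1 count, 1 listed gene, Taf7l, was past 2-fold from GO1 to GO2. With every library rescaled to the same sum of 1000000, the median member level was 207.8, 91.6, 87.7 and 67.9 in NGOs, GO1, GO2 and FGOs, against 39.1, 16.0, 14.8 and 12.7 RPKM. As counts without length, Tbpl2 over Tbp was 1.09, 0.300, 0.299 and 0.430, and Taf4b over Taf4 was 1.54, 0.860, 0.929 and 1.34. Chosen after seeing the data, the length of Tbp-201 gave 1.49, 0.411, 0.411 and 0.590 for Tbpl2 over Tbp, and taking off the counts on Pdcd2 gave 19.3, 3.66, 3.53 and 7.47. With a pseudocount of 0.01, 9 of the 24 nearest genes in pattern were shared. With 1 library for each stage, depth sets the counting intervals and the spread between libraries of a stage is unknown. No paired analysis was possible because each stage had 1 library.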
